A study of Mus musculus with 6 samples.

Results

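The regions described here are 650 sites of open chromatin found at the ends of protein-coding genes in regulatory T cells (Treg cells) labelled Bcl11b knockout, with no site called nearby in Treg cells with intact Bcl11b. They were chosen from the 36182 peaks of the knockout (KO) list by 2 conditions: no peak of the wild-type (WT) list lay within 500 bp, edge to edge, and the midpoint lay within 1 kb of the lower or upper end of a protein-coding gene of RefSeq on build mm10. Of 10942 KO peaks at gene ends, 9382 overlapped a WT peak (called shared below), 910 had a WT peak at 0 to 500 bp without overlap, and the 650 KO-only peaks made up 5.94% (exact 95% interval 5.50 to 6.40%). Among all KO peaks, wherever they lay, 18.3% had no WT peak within 500 bp.

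The KO group carried Bcl11b f/f with Foxp3-IRES-YFP-Cre and the WT group Bcl11b w/w with the same Foxp3-IRES-YFP-Cre, both on a C57BL/6 background, with 3 samples per group and 100000 cells lysed per sample. CD4+YFP+ cells were sorted from lymph nodes and spleen, and the YFP and the Cre recombinase were thus expressed under Foxp3 in both groups. Bcl11b itself had 1 KO and 1 WT gene-end peak, which overlapped, and peaks do not show whether its deletion was complete. The labels used here give neither the age of the mice, nor the number of mice behind a sample, nor the deleted part of Bcl11b. Each group had 1 deposited peak list for its 3 samples, so no value per sample was used here, the depth is unknown, no test across replicates was made and all intervals cover counting error only.

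In ATAC-seq a transposase cuts open DNA, and the start of an active gene is usually the most open site of that gene. The promoter is kept free of nucleosomes by transcription factors, and the nucleosomes further into the gene are placed in a regular order. Bcl11b encodes a zinc-finger factor of the T lineage that holds innate and NK cell genes down in developing and mature T cells. A KO-only peak was not called in the WT list, and this says nothing of how open the site was in WT cells below the calling threshold.

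RefSeq promoter windows, of 250 bases before and 50 after an annotated start (build GRCm38.p6), show what kind of sequence lay under KO-only peaks at immune and cell cycle genes. Windows were taken for the 8 earliest genes, by row order, of the lists described further on whose start-side KO-only peak overlapped the window, and those with at least 50 of the 300 bases covered are given. Each runs 5′ to 3′ along the gene's strand, and capitals mark the bases that the KO-only peak covered. Motif letters were searched on both strands, so some are printed here as their reverse complement.
Ccnd3: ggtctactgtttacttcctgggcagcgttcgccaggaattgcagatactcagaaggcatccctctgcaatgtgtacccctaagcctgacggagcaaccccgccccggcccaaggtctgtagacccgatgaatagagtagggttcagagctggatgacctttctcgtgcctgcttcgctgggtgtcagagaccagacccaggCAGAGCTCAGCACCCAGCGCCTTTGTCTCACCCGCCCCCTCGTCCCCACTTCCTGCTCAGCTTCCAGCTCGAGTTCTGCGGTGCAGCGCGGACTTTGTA
Lck: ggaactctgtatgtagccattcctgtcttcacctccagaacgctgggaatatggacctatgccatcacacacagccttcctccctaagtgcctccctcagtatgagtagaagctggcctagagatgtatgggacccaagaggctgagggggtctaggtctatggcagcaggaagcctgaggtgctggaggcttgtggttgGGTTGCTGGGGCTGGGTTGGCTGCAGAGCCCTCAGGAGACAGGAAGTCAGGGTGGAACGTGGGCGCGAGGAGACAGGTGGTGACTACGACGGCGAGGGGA
Isg15: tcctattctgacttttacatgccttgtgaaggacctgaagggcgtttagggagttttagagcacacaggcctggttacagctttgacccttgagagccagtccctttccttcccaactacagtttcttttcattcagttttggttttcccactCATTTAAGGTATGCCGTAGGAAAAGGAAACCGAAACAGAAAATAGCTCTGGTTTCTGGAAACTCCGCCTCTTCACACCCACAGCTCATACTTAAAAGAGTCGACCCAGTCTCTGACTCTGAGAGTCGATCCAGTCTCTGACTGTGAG
Fcer1g: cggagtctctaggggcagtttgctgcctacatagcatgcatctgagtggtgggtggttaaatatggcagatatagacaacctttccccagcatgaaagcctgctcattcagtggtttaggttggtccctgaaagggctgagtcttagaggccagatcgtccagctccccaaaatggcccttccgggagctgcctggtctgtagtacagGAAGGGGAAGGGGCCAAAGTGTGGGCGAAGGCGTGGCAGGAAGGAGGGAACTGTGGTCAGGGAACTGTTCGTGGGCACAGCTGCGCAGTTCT
Oasl1: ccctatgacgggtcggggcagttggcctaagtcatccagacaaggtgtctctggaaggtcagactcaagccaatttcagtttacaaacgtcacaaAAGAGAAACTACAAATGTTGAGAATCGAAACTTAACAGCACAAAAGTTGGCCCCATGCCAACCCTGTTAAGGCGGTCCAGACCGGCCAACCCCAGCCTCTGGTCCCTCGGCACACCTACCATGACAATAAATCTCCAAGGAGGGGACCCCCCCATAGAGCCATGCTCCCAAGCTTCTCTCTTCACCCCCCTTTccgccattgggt
Cd244a: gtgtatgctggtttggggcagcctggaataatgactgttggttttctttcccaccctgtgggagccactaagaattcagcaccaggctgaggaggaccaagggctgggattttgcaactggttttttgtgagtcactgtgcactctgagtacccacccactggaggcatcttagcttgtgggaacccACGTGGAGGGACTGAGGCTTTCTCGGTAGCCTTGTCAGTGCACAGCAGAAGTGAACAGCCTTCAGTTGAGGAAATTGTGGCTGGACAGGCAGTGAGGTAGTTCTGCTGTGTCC
The Ccnd3 window lies at chr17:47504801-47505100 on the plus strand and has 99 covered bases. These hold the SP and KLF letters GGGCGGG on the opposite strand, printed as CCCGCCC. The Lck window, chr4:129573592-129573891 on the minus strand, has 100 covered bases with the E-box letters CAGGTG. At Isg15 (chr4:156200769-156201068, minus strand) the 147 covered bases hold the letters searched for interferon response elements. They also hold the T-box letters GGTGTGA on the opposite strand, printed as TCACACC. At Fcer1g (chr1:171234300-171234599, minus strand) the 92 covered bases hold the RUNX letters TGTGGT. Overlapping them on the opposite strand, printed as TGGTCA, is TGACCA, letters bound by BCL11A, the close relative of Bcl11b. The windows of Oasl1 (chr5:114922990-114923289, plus strand) and Cd244a (chr1:171558943-171559242, plus strand) hold 193 and 113 covered bases with none of the 16 motifs searched in them. Windows of Pim1 and Klrk1 were covered over 35 and 13 bases and are not printed.

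Genes of T cell identity and T cell receptor signalling held KO-only gene-end peaks at the largest share of their genes among the 21 gene lists examined. Of their 29 genes, 9 had one (31.0%) and 0 had a WT-only gene-end peak, against 3.06% and 3.53% of all 21887 protein-coding genes. All 29 had some KO gene-end peak, and among all genes with a KO gene-end peak 6.18% had a KO-only one. Counted by peaks, 9 of the 36 KO gene-end peaks of the list were KO-only (25.0%, exact 95% interval 12.1 to 42.2%) and 0 of its 26 WT gene-end peaks were WT-only (interval 0 to 13.2%), while 26 KO peaks were shared. By that count cytotoxic and NK genes stood higher (29.4%) and B cell genes level (25.0%, 2 of 8 peaks). The list count is a description of 2 peak lists, with no test across samples.

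Most of these 9 genes had no WT gene-end peak at all. Lck, the kinase that starts T cell receptor signalling, is known for a distal and a proximal promoter, and its KO-only peak lay 46 bp into the gene from the annotated start (chr4:129573499-129573691). The nearest WT peak was 1.47 kb away from it, and 3 WT peaks had their midpoint elsewhere inside Lck. Lcp2, the adaptor SLP-76, had its KO-only peak 256 bp into the gene (chr11:34047088-34047280), with the nearest WT peak at 1.54 kb. Nfatc1, a calcium-regulated transcription factor, had one 55 bp inside its upper end, 15.5 kb from any WT peak. Cd2, Bcl10 and Cd6 did have a WT gene-end peak, but at the other end of the gene from the KO-only one.

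Cd2, an adhesion receptor of T and NK cells, had the highest place of the list, row 2666 of the KO list (the first 7.37%). That peak, chr3:101287996-101288188, stood 153 bp outside the upper end of the gene, and the nearest WT peak was 7.35 kb away. The KO-only peak of Bcl10, an adaptor between the T cell receptor and NF-kB, lay 434 bp inside the far end of the gene, 3.95 kb from a WT peak. At Cd6, a negative regulator of T cell activation, it lay 970 bp outside the lower end. The adaptor gene Skap1, the coreceptor gene Cd4 and the NFAT gene Nfatc2, which lie outside the naming rule and were added after their values were seen, complete the list at 214 bp, 457 bp and 225 bp from a gene end, with 0 WT gene-end peaks each. The peak counted for Cd4 lay nearer to another gene, 41 bp from the upper end of Gpr162. The rows of these 9 peaks ran from 2666 to 32517, the first 7.37% to the first 89.9% of the KO list, so they were spread over strong and weak places alike, as far as row order ranks strength.

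Cytotoxic, NK and innate lymphoid genes also held more KO-only than WT-only gene-end peaks. Of 32 genes 5 had a KO-only one (15.6%, against 3.06% of all genes), all of them without a WT gene-end peak. The granzyme gene Gzmk was the 1 gene with a WT-only one (3.12%, against 3.53% of all genes). By peaks, 5 of 17 KO gene-end peaks were KO-only (29.4%, 10.3 to 56.0%) and 1 of 12 WT gene-end peaks was WT-only (8.33%, 0.211 to 38.5%). These intervals overlap. Nkg7, a protein of cytotoxic granules, had its KO-only peak 574 bp beyond its far end (chr7:43438724-43438916), 4.92 kb from the nearest WT peak. Il2rb, the beta chain of the IL-2 and IL-15 receptors, had one 589 bp outside its upper end and 1.63 kb from a WT peak, and 4 WT peaks lay inside the gene.

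Fcer1g, Klrk1 and Cd244a encode parts of activating receptors of NK cells. At Fcer1g, the signalling chain shared by Fc and NK receptors, the KO-only peak covered the start (midpoint 54 bp into the gene) and the nearest WT peak lay 11.5 kb away. At Klrk1, the receptor NKG2D, it lay 172 bp into the gene with the nearest WT peak at 15.0 kb. Cd244a, a receptor of the SLAM family, had one 508 bp into the gene from the outermost start in the gene table, which is 33 bp downstream of the start of its promoter window, and 4.93 kb from a WT peak. These 3 peaks stood late in the KO list, at 55.2%, 71.5% and 76.0% of its length, whereas Nkg7 and Il2rb stood at 25.7% and 31.0%. Of the NK markers Ncr1, Klrb1c and Klra8, none had a gene-end peak in either list, and Eomes had 1 shared one.

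At Th1 genes 3 of 16 had a KO-only gene-end peak (18.8%) and 1 had a WT-only one, against 3.06% and 3.53% of all genes. By peaks these were 3 of 14 KO (21.4%, 4.66 to 50.8%) and 1 of 11 WT gene-end peaks (9.09%, 0.230 to 41.3%), with intervals that overlap. Tbx21, which encodes the Th1 factor T-bet, had both: its KO-only peak lay 483 bp into the gene (chr11:97114752-97114944), 0.948 kb from the nearest WT peak, and the WT-only peak lay at the same end. Il12rb1, a chain of the IL-12 receptor, had a KO-only peak 119 bp inside its lower end and no WT gene-end peak. Il18r1, a chain of the IL-18 receptor, had one 828 bp beyond its far end in addition to a shared peak.

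IL-2, STAT5 and cytokine feedback genes held 3 KO-only genes among 18 (16.7%, against 3.06% of all genes) and 0 WT-only ones. By peaks 3 of 17 were KO-only (17.6%, 3.80 to 43.4%), and the 3 genes became 1 with a 500 bp window and 7 when any KO peak that did not overlap a WT peak was counted. Besides Il2rb these were Pim1, a kinase induced by cytokines, with a KO-only peak 312 bp upstream of its start and 3.76 kb from any WT peak, and Cish, a feedback inhibitor of cytokine receptors, with one 503 bp beyond its far end. Among interferon-stimulated genes 3 of 24 (12.5%) were KO-only and 1, Gbp5, WT-only, and with a gap of 1000 bp 1 KO-only gene was left. Isg15, a ubiquitin-like protein, had its KO-only peak 1 bp upstream of its start. Oasl1, of the oligoadenylate synthetase family, had one 38 bp into the gene from the outermost start in the gene table. That is 59 bp upstream of the start of its promoter window. Neither gene had a WT gene-end peak, and the nearest WT peaks were 2.01 kb and 0.925 kb away. Gbp2, an interferon-induced GTPase, had a KO-only peak 939 bp upstream of its start beside a shared one. That KO-only peak lay nearer to Gbp2b, 545 bp beyond its far end.

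Treg signature genes and naive T cell genes had fewer KO-only than WT-only gene-end peaks, but the counts were small. Of 29 Treg signature genes 2 had a KO-only one and 4 a WT-only one (6.90% and 13.8%), and of 18 naive and resting genes 2 and 4 (11.1% and 22.2%). The shares of all genes were 3.06% and 3.53%. By peaks the Treg shares were 8.70% (1.07 to 28.0%) and 16.7% (4.74 to 37.4%). Those of naive genes were 11.1% (1.38 to 34.7%) and 22.2% (6.41 to 47.6%), and in both lists the intervals overlap. The 2 KO-only Treg genes became 0 with a 500 bp window and 5 with a 2 kb window. Lrrc32, the receptor GARP that presents TGF-beta on Treg cells, had a KO-only peak 554 bp inside its lower end and no WT gene-end peak. Nrp1, a semaphorin receptor found on many Treg cells, had one 643 bp beyond its far end, where no WT gene-end peak lay, in addition to a shared peak. Il6ra, the IL-6 receptor, had one 407 bp inside its far end. Bcl11b, Foxp3, Il2ra, Ctla4, Ikzf2 and Il10 had 0 KO-only gene-end peaks, and Foxp3 and Il10 had no gene-end peak in either list. Of 7 Treg and T cell markers, Il2ra, Ctla4, Ikzf2 and Cd3e had a gene-end peak in both lists, Foxp3 and Tnfrsf18 in neither, and the peak of Cd4 is a KO-only one that the rule itself selected.

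Cell cycle genes held 3 KO-only genes among 24 (12.5%, against 3.06% of all genes) and 1 WT-only gene (4.17%, against 3.53%). Of the 24 genes, 20 had a KO gene-end peak, and among all genes with such a peak 6.18% had a KO-only one. By peaks 3 of 24 KO gene-end peaks were KO-only (12.5%, 2.66 to 32.4%) and 1 of 23 WT ones WT-only (4.35%, 0.110 to 21.9%). The KO interval contains the 5.94% of all KO gene-end peaks. Ccnd3, the D-type cyclin of lymphocytes, had the earliest KO-only peak of any gene without a WT gene-end peak: row 3286 of the KO list, chr17:47505002-47505194, 47 bp into the gene and 2.71 kb from the nearest WT peak, with 6 WT peaks further inside the gene. Ccnd2, another D-type cyclin, had 1 KO-only gene-end peak, 0.715 kb from the nearest WT peak, and 1 WT-only one at the same end. E2f1, a factor of S-phase entry, had one 703 bp beyond its far end at 81.7% of the list, which lay inside the neighbouring gene Necab3, 709 bp from its start. Lists for other cell types held B cell genes Bank1 and Cd79b (2 of 17, 11.8%) and the myeloid gene Tlr4 (1 of 22, 4.55%), all without a WT gene-end peak. The share of all genes was 3.06%, near that of the myeloid list. The peaks of Bank1, Cd79b and Tlr4 stood late, at 81.7%, 99.3% and 68.0% of the KO list. Of the B cell markers, Cd79a, Ms4a1 and Pax5 had no gene-end peak in either list, and Cd79b had the KO-only one. Of 5 myeloid markers, Lyz2, Csf1r and Itgam had none in either list, and Cd14 and Spi1 had 1 shared gene-end peak each. The part of other cells in these results was not tested.

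The remaining lists held 0 or 1 KO-only gene. Csf2, the cytokine GM-CSF, was the KO-only gene of the 21 Th2, Th17 and follicular helper genes, with its peak 323 bp into the gene and the nearest WT peak 186 kb away. Ezh2, the Polycomb methyltransferase, was that of the 31 chromatin regulators, and Rpl10 that of 30 ribosomal protein genes, 675 bp and 631 bp from the nearest WT peak, and each with a WT peak at the same gene start. Effector and homing, co-inhibitory, metabolism and mTOR, apoptosis, housekeeping, CD8 T cell, erythroid and non-lymphoid lists held 0. Among the 12 co-inhibitory receptor genes, Cd101 and Lag3, named after their values were seen, had a WT-only gene-end peak. Over all lists 35 of 436 genes had a KO-only gene-end peak (8.03%) and 18 a WT-only one (4.13%), against 3.06% and 3.53% of all genes.

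**Figure D1:**
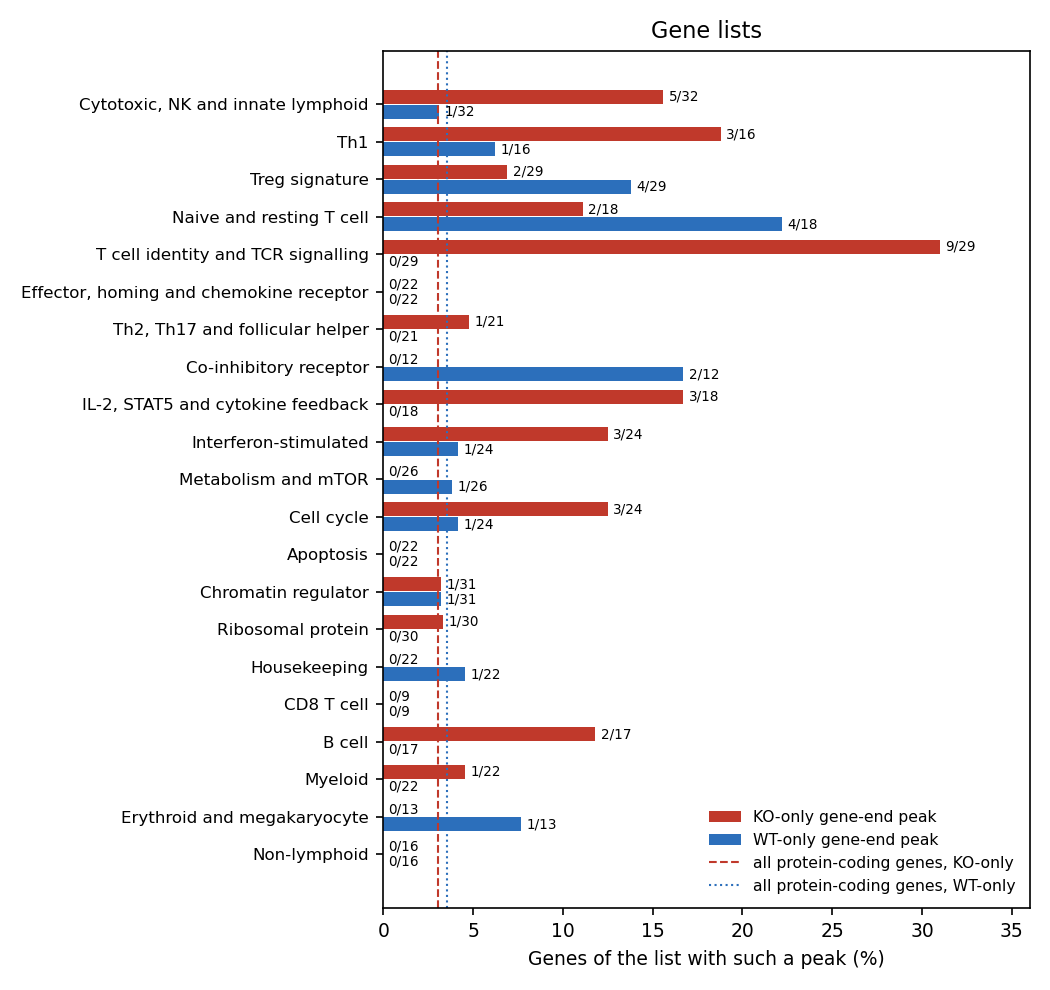
Percentage of the genes of each list with a KO-only gene-end peak (red, upper bar) and with a WT-only one (blue, lower bar), with the number of genes beside each bar. Dashed and dotted lines give the 3.06% and 3.53% of all protein-coding genes, and T cell identity and TCR signalling genes stand at 9 of 29 against 0 of 29.

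Across the genome the 650 peaks touched 669 genes, since 42 of them lay at the ends of 2 or more genes. A single KO-only peak was found at 646 genes and 2 at 23 genes. Of the 669 genes, 396 (59.2%, and 1.81% of all protein-coding genes) had no WT gene-end peak, and 239 of these had no WT peak inside the gene either. The other 273 had a WT peak at one of their ends, and 22 genes had a KO-only and a WT-only gene-end peak. The mirror set had near the same shape: 736 WT-only gene-end peaks (6.77% of 10874 WT gene-end peaks) at 772 genes, of which 455 (58.9%) had no KO gene-end peak.

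The earliest KO-only peak without any WT gene-end peak after Ccnd3 was that of Tmem267, 316 bp into the gene and 25.4 kb from a WT peak. Mex3b, an RNA-binding protein, had one 262 bp upstream of its start, and Arhgef18, an exchange factor for small GTPases, one 128 bp into the gene. Leprotl1, Ncoa2, a coactivator of nuclear receptors, and Rdh10, a retinol dehydrogenase, had theirs 1 bp, 154 bp and 57 bp from a gene end whose orientation the promoter table does not give. Ccnl1, a cyclin linked to splicing, had one 671 bp upstream of its start, and Tnfrsf26 one 852 bp outside its upper end. The nearest WT peak stood between 0.710 kb (Mex3b) and 4.08 kb (Ccnl1) from the peaks of these genes other than Tmem267. Olfr1258, also of this group, belongs to the large olfactory receptor family. Its peaks may be uncertain if reads of similar family members were misplaced, which was not tested.

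Of the 23 genes with 2 KO-only gene-end peaks, 18 had both at the same gene end and 5 had 1 at each end. Lgals3, the lectin galectin-3, had them 89 bp and 671 bp into the gene, with the nearest WT peak at 21.3 kb. Fmnl2, a formin, had them 174 bp and 901 bp into the gene, 94.5 kb from the nearest WT peak. Prss12, a serine protease, had them 137 bp and 787 bp into the gene, and Qrfp, a neuropeptide precursor, 3 bp and 667 bp upstream of its start. Scd2, a fatty acid desaturase, had one 74 bp outside and one 419 bp inside its lower end. Slc15a3, a peptide transporter, had them 117 bp and 693 bp outside its lower end, and Bcas1 82 bp and 683 bp outside its own. Treml4, a myeloid receptor, had one 193 bp beyond and one 473 bp inside its far end. Hnrnpa3, an RNA-binding protein, had one 717 bp into the gene beside a shared peak and one 282 bp beyond its far end. Of the genes named here, Hnrnpa3 was the only one with a WT gene-end peak. Hnrnpa1 and Hnrnpa3 have near-identical copies elsewhere, and how reads of such copies were placed is not given.

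The earliest rows of the KO-only peaks were of another kind. Row order is taken as a rank of peak strength, which the labels do not state. Of the 10 earliest, 7 had a WT peak at the same gene end. Tmem123 had the first, row 1928, 744 bp into the gene and 635 bp from the WT peak. Zfp788 had one 650 bp upstream of its start, Ttc41 one 731 bp into the gene, Abhd11 one at 656 bp and the chaperone gene Dnaja1 one at 748 bp. Near the starts of Cbx5, a heterochromatin protein, and Hnrnpa1, a splicing regulator, which face away from each other, 1 KO-only peak lay 402 bp inside Cbx5, which is 441 bp upstream of Hnrnpa1. Dus2 and Zfp53 had theirs near the far end. Zfp788 and Zfp53 belong to the large family of zinc-finger genes. Their calls may be uncertain if reads of similar family members were misplaced, which was not tested.

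Over all members, 137 (21.1%) had a WT peak at the same gene end and 513 had none. The 137 stood earlier in the KO list (median place 42.9% of its length) than the 513 (median 79.1%), and 54 of the 100 earliest members belonged to them, against 2 of the 100 latest. Where the gene start was known, 70 of 107 peaks of the first kind (65.4%, 55.6 to 74.4%) lay 400 to 1000 bp downstream of it and 10 within 200 bp. Of the second kind 58 of 261 (22.2%, 17.3 to 27.8%) lay 400 to 1000 bp downstream and 132 within 200 bp (50.6%, 44.3 to 56.8%). The rule itself keeps a member over 500 bp from any WT peak, so a member beside a WT peak at the start had to lie further away.

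The promoter table gave the orientation of 17492 genes, and with it 368 members lay near a gene start. Of these 142 (38.6%, 33.6 to 43.8%) had their midpoint within 200 bp of the start, as did 38.6% of 425 WT-only peaks and 74.5% of 7309 shared ones (73.5 to 75.5%). A further 128 (34.8%, 29.9 to 39.9%) lay 400 to 1000 bp downstream, against 30.8% of WT-only and 10.6% of shared peaks. At 400 to 1000 bp upstream lay 44 (12.0%, 8.82 to 15.7%), against 12.2% and 3.35%. These positions count from the outermost end in the gene table, and the start of the promoter window lay within 1 bp of it for 206 of 382 pairs of a KO-only peak and a gene start and over 200 bp away for 83. Counted from the start of the promoter window, 42.2% of 339 KO-only peaks lay within 200 bp and 31.6% lay 400 to 1000 bp downstream (26.6 to 36.8%), against 25.1% of WT-only and 6.06% of shared peaks. Over all gene ends the midpoint was a median of 427 bp from the nearest end for KO-only, 358 bp for WT-only and 120 bp for shared peaks, and inside the gene for 60.3%, 61.7% and 59.5% of them. The rule bears on these contrasts, since it keeps KO-only and WT-only peaks over 500 bp from any peak of the other list. Shared peaks have no such limit, and 70 of the 128 members downstream had a WT peak at the same gene end.

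**Figure D2:**
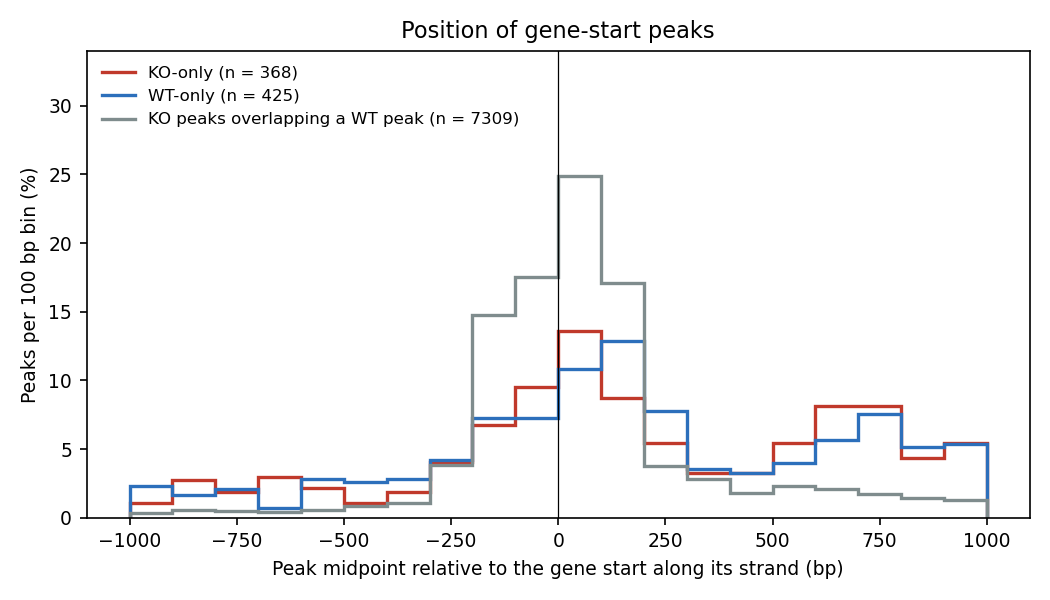
Share of gene-start peaks in bins of 100 bp, by the position of the midpoint along the gene's strand, for KO-only (red), WT-only (blue) and shared (grey) peaks. KO-only and WT-only peaks have a second rise downstream of the start that is lower in shared peaks, with 34.8%, 30.8% and 10.6% of peaks at 400 to 1000 bp. The rule keeps KO-only and WT-only peaks over 500 bp from any peak of the other list, a limit that shared peaks do not have.

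Far ends of genes, where transcription stops, held more of the KO-only than of the shared peaks. Among peaks at a start or a far end alone, 138 of 492 KO-only peaks lay at a far end (28.0%, 24.1 to 32.2%), against 152 of 558 WT-only peaks (27.2%, 23.6 to 31.1%) and 5.84% of shared peaks (5.32 to 6.40%). A further 14 KO-only peaks lay at the start of one gene and the far end of another, and 144 could not be oriented. In the first 50% of the KO list the far-end share was 21.1% of KO-only peaks (14.5 to 29.0%) and 3.32% of shared ones (2.89 to 3.80%). In the second 50% it was 30.6% (25.9 to 35.7%) and 18.9% (16.7 to 21.2%). WT-only peaks stood at 10.3% (5.41 to 17.2%) in the first 50% of the WT list, 12 of 117 peaks, and at 31.7% in the second. The rule bears on the contrast with shared peaks, since it removes KO peaks within 500 bp of a WT peak. Of shared peaks at a start or a far end alone, 94.2% lay at a start. The start share of KO-only peaks was 85.7% without a gap, 72.0% with the 500 bp gap and 64.2% with a 1000 bp gap.

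**Figure D3:**
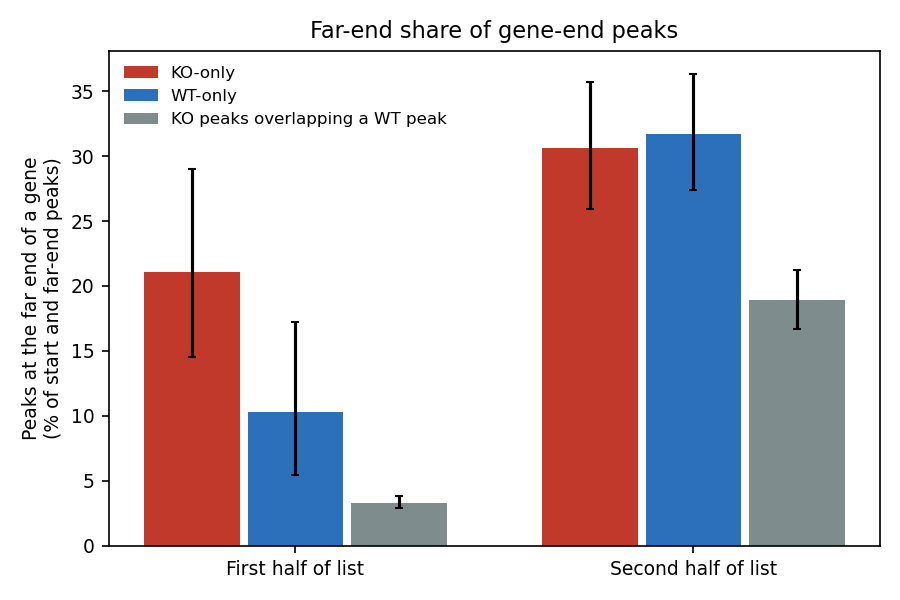
Far-end share of gene-end peaks, in percent of peaks at a start or a far end, in the first and second 50% of each list, with exact 95% intervals for counting error. In the first 50% KO-only peaks stand at 21.1%, WT-only at 10.3% and shared at 3.32%. KO-only and WT-only peaks are by the rule over 500 bp from any peak of the other list, which bears on their contrast with shared peaks.

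KO-only gene-end peaks lay mostly late in the list. Their median place was 71.0% of the length of the KO list (quartiles 48.2 and 89.6%), against 72.6% for WT-only peaks in the WT list and 21.7% for shared peaks in the KO list. Only 6 of the 2565 KO gene-end peaks in the first 10% of the list were KO-only (0.234%), and 156 of 335 in the last 10% (46.6%, 41.1 to 52.1%). For WT-only peaks the shares were 2 of 2857 (0.0700%) and 154 of 284 (54.2%, 48.2 to 60.1%). From 40% of the list onward the KO-only share was the lower of the 2 in every step, with 15.7% (12.5 to 19.4%) against 27.0% (22.8 to 31.6%) at 70 to 80%. The intervals overlap at 40 to 50%, at 50 to 60% and at 90 to 100%. The WT list is also the longer, with 38258 peaks against 36182. With the WT list trimmed to the KO length, the KO-only share of KO gene-end peaks was 6.53%, against 5.94%. The members nearest to the limit of the rule had a WT peak at 504, 504 and 505 bp, and the nearest KO gene-end peaks left out had one at 500, 495 and 492 bp. Most members lay far from that limit: the median member had its nearest WT peak at 7.16 kb, 148 members (22.8%) within 1000 bp and 92 (14.2%) beyond 50 kb.

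**Figure D4:**
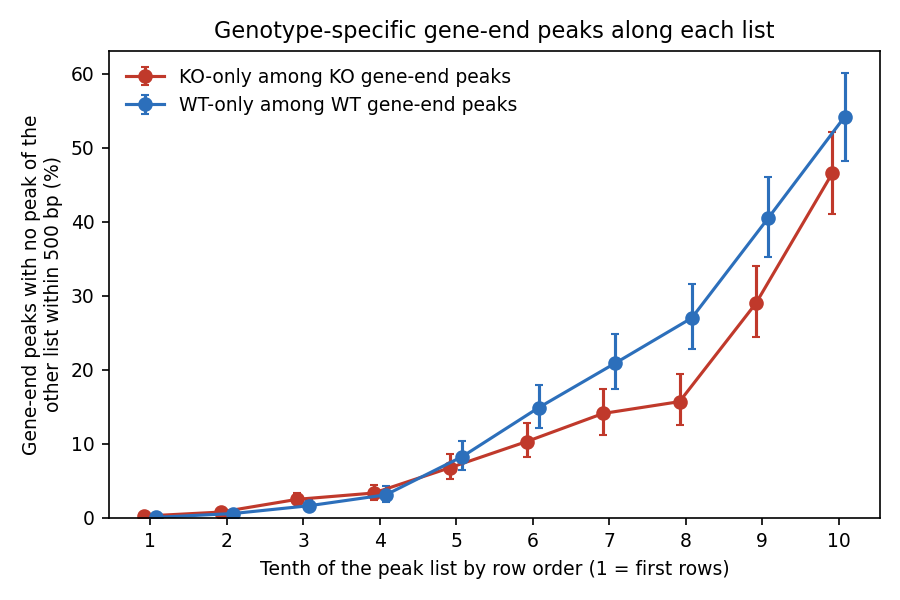
Percentage of gene-end peaks with no peak of the other list within 500 bp, in steps of 10% of the KO list (red) and of the WT list (blue) in row order, with exact 95% intervals for counting error. The share rises along both lists, to 46.6% of KO and 54.2% of WT gene-end peaks in the last 10%.

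Promoters under KO-only peaks were poorer in CpG than those under shared peaks. A KO-only midpoint and no WT midpoint fell in 117 of 21238 promoter windows. Their ratio of observed to expected CpG had a median of 0.588, against 0.644 in 120 windows under WT-only peaks, 0.837 in 4723 under shared peaks and 0.567 in all windows. The ratio was under 0.4, a low-CpG promoter, in 29.1% of them (21.0 to 38.2%) and in 27.5% under WT-only peaks (19.7 to 36.4%). It was under 0.4 in 4.72% under shared peaks. Of all windows 39.4% were under 0.4 (38.7 to 40.1%), so windows under KO-only peaks were less often low in CpG than windows in general. For the second 50% of the KO list alone the shares were 28.6% (19.6 to 39.0%) under KO-only and 17.4% (13.7 to 21.6%) under shared peaks.

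Motif letters were searched on both strands in the same windows. The ETS letters CCGGAAG stood in 9.40% of windows under KO-only peaks (4.79 to 16.2%), 5.83% under WT-only peaks, 25.6% under shared peaks and 11.6% of all windows. The letters searched for NRF1 stood in 1.71% (0.208 to 6.04%), 6.67%, 14.1% and 6.38%. The AP-1 letters TGANTCA stood in 11.1% (6.05 to 18.3%), 3.33%, 3.94% and 6.99%. T-box letters, GGTGTGA, stood in 6.84% (3.00 to 13.0%), 0.833%, 2.90% and 3.68%. The BCL11A letters TGACCA stood in 19.7% (12.9 to 28.0%), 9.17%, 11.1% and 12.5%, and the RUNX letters TGTGGT in 17.9% (11.5 to 26.1%), 9.17%, 12.1% and 15.0%. For RUNX, T-box and AP-1 the interval under KO-only peaks contains the share of all windows, and for BCL11A its lower bound, 12.9%, lies just above the 12.5% of all windows. In the second 50% of the KO list the BCL11A share was 17.6%, and its interval (10.4 to 27.0%) contains the 12.5%. The SP and KLF letters GGGCGGG stood in 35.9% (27.2 to 45.3%), 49.2%, 54.8% and 33.9%, and the NF-Y letters CCAAT in 32.5% (24.1 to 41.8%), 32.5%, 46.6% and 38.2%. The E-box letters CAGGTG stood in 19.7%, 29.2%, 15.8% and 19.7%, the TCF and LEF letters CTTTGA in 17.1%, 11.7%, 10.1% and 14.4%, and the forkhead letters TGTTTAC in 5.98%, 3.33%, 2.39% and 3.00%. The GATA letters AGATAA stood in 9.40%, 6.67%, 4.26% and 9.65%, and the CRE letters TGACGTC in 1.71%, 4.17%, 6.84% and 3.84%. NF-kB, STAT and interferon response element letters stood in 10.3%, 6.84% and 4.27% of windows under KO-only peaks, and in 6.06%, 7.69% and 3.34% of all windows. Letters of different motifs could overlap. In the second 50% of the KO list the ETS shares were 8.79% under KO-only (3.87 to 16.6%) and 14.8% under shared peaks (11.4 to 18.8%). Those of NRF1 were 1.10% (0.0278 to 5.97%) and 6.49% (4.25 to 9.44%). Both were lower under KO-only peaks, but the intervals overlap for each. A match is a description of the letters and not a bound site.

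**Figure D5:**
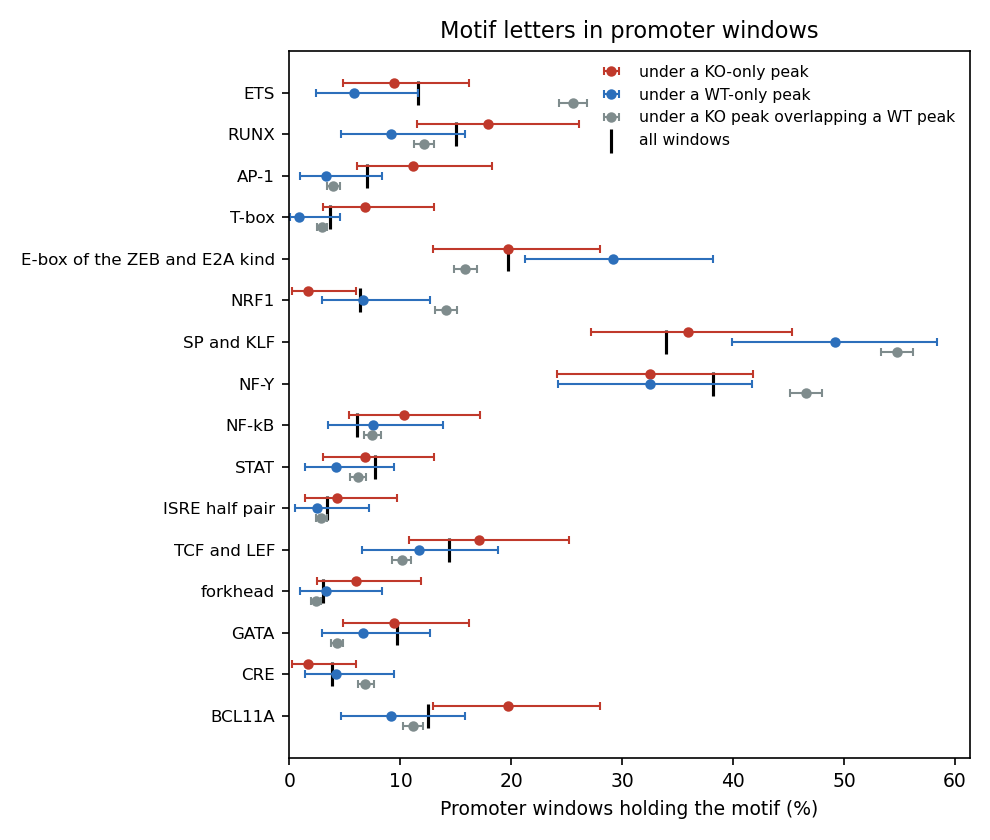
Percentage of promoter windows that hold the letters of each of 16 motifs, under KO-only (red), WT-only (blue) and shared (grey) peaks, with exact 95% intervals, and in all windows (black ticks). The largest gaps are at ETS, with 9.40%, 5.83% and 25.6%, and at SP and KLF, with 35.9%, 49.2% and 54.8%.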

How the data were processed

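Open chromatin was profiled with ATAC-seq in 3 KO and 3 WT samples. The submitters' processing notes name HOMER 4.10.1, HISAT2 2.1.0, SAMtools 1.3, cutadapt 1.12, Trim Galore 0.4.2 and build mm10. What each did, the threshold for a peak, any read shift for the transposase and how replicates were joined were not given in the sources used here. The authors deposited 1 peak list per group, with starts, ends and a score that is 1 in every row. Peaks are 193 bp (KO) and 219 bp (WT) wide in nearly all rows.

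Peaks were compared by edge-to-edge gap and set against gene ends of the RefSeq table of GRCm38.p6 (mm10 coordinates). The table gives no exons as used here. Orientation and sequence came from RefSeq promoter windows of the same build. Python 3.11.15, numpy 2.4.6, pandas 2.3.3, scipy 1.17.1 and matplotlib 3.10.9 were used. Intervals are exact Clopper-Pearson 95% intervals for counting error alone, and neighbouring peaks depend on each other. The code was tested on simulated data: 200 of 200 planted KO-only peaks among 400 were recovered, and distances equalled those of bedtools.

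The members and the 21 lists (440 distinct genes, 436 found) were chosen with earlier results of these data known. Named genes are those of the 10 earliest members, up to 10 genes with 2 members, up to 6 genes of each list, the 10 earliest without a WT gene-end peak, and Bcl11b, Foxp3, Il2ra, Ctla4, Ikzf2 and Il10, with predicted gene models passed over. Marker genes for other cells, the WT-only genes Gzmk and Gbp5, the genes Skap1, Cd4 and Nfatc2, and the neighbouring genes Gpr162, Gbp2b and Necab3 lie outside it. Of up to 8 promoters that the rule allows, 6 are printed. Alternatives were other gaps, windows, list lengths, chromosomes and gene models. Some genes that the rule would name are not reported here.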

Additional observations from a re-analysis of the deposited data

How the results depend on the processing

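The number of KO-only gene-end peaks was 1560 under the overlap rule without a gap, 353 with a 500 bp window, 1029 with a 2 kb window and 173 in the first 50% of the KO list, against 650. Their share of KO gene-end peaks was 14.3% under the overlap rule, 4.59% with a gap of 1000 bp, 3.86% with a 500 bp window, 8.10% with a 2 kb window, 2.02% in the first 50% of the list and 6.53% with a WT list trimmed to as many rows as the KO list. The share at gene starts was 85.7%, 64.2%, 79.2%, 66.8% and 78.9% under the first 5 of these settings, in that order. The median place was 51.4% under the overlap rule, 79.8% with the 1000 bp gap, 74.8% with the 500 bp window and, by construction, 35.8% in the first 50% of the list. Genes without a WT gene-end peak numbered 62 in the first 50% of the list and 299 to 455 under the other settings. List genes with a KO-only peak numbered 65 under the overlap rule, 22 with the 500 bp window, 57 with the 2 kb window and 16 in the first 50% of the list. The T cell list held 8 to 10 genes under all settings except the first 50% of the list, where it held 4. The cytotoxic list held 2 with the 500 bp window and in the first 50% of the list, and 9 with the 2 kb window. Th1 genes numbered 1 to 5, IL-2 and STAT5 genes 1 to 7 and interferon-stimulated genes 1 to 5 over all settings. Measuring from the start of the promoter window, chosen after seeing the data, kept both shares of KO-only start peaks within their intervals. Autosomes alone, the removal of predicted models and the use of any base of the peak moved none of the 6 main results beyond 1.5 times or beyond its interval. No paired analysis was possible because the files used here hold 1 list per group with no values per sample, and for the same reason no replicate could be left out.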

Other observations

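Other immune genes outside the lists and the naming rule, chosen after their values were seen, also had a KO-only peak at the start and no WT gene-end peak. Myd88, the adaptor of Toll-like and IL-1 receptors, had one 95 bp into the gene, 1.06 kb from a WT peak. Cd53, a tetraspanin of leukocytes, had one 73 bp upstream of its start, and Sh2d1b1, the adaptor EAT-2 of NK cell receptors, one 78 bp upstream of its start with the nearest WT peak at 21.3 kb. Ptprc, the phosphatase CD45, had one 585 bp into the gene, 10.8 kb from a WT peak. These peaks stood between 28.5% and 36.6% of the length of the KO list.

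A noncoding RNA gene end lay within the same 1 kb at some members: 58 of 650 (8.92%, exact 95% interval 6.85 to 11.4%) were near an end of a lncRNA gene, against 9.10% of WT-only and 11.1% of shared gene-end peaks. By chromosome, the KO-only share of KO gene-end peaks ran from 3.50% on chromosome 18 to 8.24% on chromosome 19 among the autosomes (5.94% over all of them), and it was 5.70% on the X chromosome (3.41 to 8.85%). The WT-only share of WT gene-end peaks was 10.1% on the X chromosome (6.99 to 13.9%) and 6.67% on the autosomes. Chromosome 14, with the highest WT-only share of the autosomes, had 13 KO-only and 37 WT-only gene-end peaks. These were 3.70% (1.99 to 6.25%) and 9.74% (6.95 to 13.2%) of its gene-end peaks. Chromosome 19, with the highest KO-only share, had 31 and 17, or 8.24% (5.67 to 11.5%) and 4.67% (2.74 to 7.37%), with intervals that overlap. Both are named for their extreme values.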
